A study of Mus musculus with 50 samples.

Results

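Klf2, S1pr1, S1pr4, Ccr7, Cxcr4 and Cd69, genes of lymphoid homing and egress, were followed in mouse CD8+ T cells from rest through the first day of activation in culture. The 6 genes were chosen by symbol, their Ensembl identifiers were looked up in a table of 21647 genes, and all 6 passed the filter on low counts among 13294 genes tested. The cells came from spleens of 10-week-old WT mice and knockout mice (KO), both with the strain background labelled C567BL/6J, and were isolated with magnetic beads against CD8a. They were stimulated with plate-bound anti-CD3e (2 ug/ml) and soluble anti-CD28 (2 ug/ml), which engage the T cell receptor complex and the co-stimulatory receptor CD28. The mRNA was sequenced at 0h (labelled naive), 2h, 6h, 12h and 24h. Each genotype had 5 numbered mice, each sampled at all 5 times, which gave 50 libraries in 10 groups. The beads capture by CD8a alone, so no group was sorted for a naive, memory or effector surface phenotype. Counted reads per library ran from 9571625 to 31293872, with a median of 23548632. Levels are given as CPM (read counts scaled to a common TMM-adjusted library total).

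A naive T cell circulates by entering lymphoid tissue through receptors for local chemokines and leaving it along a gradient of sphingosine-1-phosphate (S1P), which is high in blood and lymph and low in the tissue. Klf2, a zinc-finger transcription factor of quiescent lymphocytes, drives transcription of S1pr1, the S1P receptor of egress. Cd69, a membrane protein induced within hours of T cell receptor engagement, binds the S1PR1 protein and takes it off the cell surface, so that a freshly activated T cell is held in the tissue. Ccr7 is the receptor for the T cell zone chemokines CCL19 and CCL21, Cxcr4 is the receptor for CXCL12, and S1pr4 is a further S1P receptor of lymphocytes.

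In the GENCODE M21 annotation of GRCm38, Klf2 (ENSMUSG00000055148) lies at chr8:72319033-72321656 on the plus strand. The other members are on the minus strand, with S1pr1 (ENSMUSG00000045092) at chr3:115710433-115715072, S1pr4 (ENSMUSG00000044199) at chr10:81497747-81500132, Ccr7 (ENSMUSG00000037944) at chr11:99144196-99155077, Cxcr4 (ENSMUSG00000045382) at chr1:128588199-128592293 and Cd69 (ENSMUSG00000030156) at chr6:129267325-129275436. None of the 6 shares exon positions with another annotated gene, and each value is a count of reads over the gene's exons. Of the 6 genes, 3 had an entry in the RefSeq promoter table of build GRCm38.p6, namely Klf2, S1pr4 and Cxcr4, all of which fell from 0h to 24h in both genotypes in edgeR's test. The 250 bases before each start site are shown 5′ to 3′ on the gene's strand, with matches to CACCC, the box bound by Krüppel-like factors such as KLF2, in capitals (GGGTG where the match is on the other strand). They span chr8:72318812-72319061 for Klf2, chr10:81500138-81500387 for S1pr4 and chr1:128592300-128592549 for Cxcr4. The start sites are those of the RefSeq table. The Klf2 window runs past the GENCODE start of Klf2, and its CACCC match lies in that stretch, within the gene as GENCODE places it.
Klf2: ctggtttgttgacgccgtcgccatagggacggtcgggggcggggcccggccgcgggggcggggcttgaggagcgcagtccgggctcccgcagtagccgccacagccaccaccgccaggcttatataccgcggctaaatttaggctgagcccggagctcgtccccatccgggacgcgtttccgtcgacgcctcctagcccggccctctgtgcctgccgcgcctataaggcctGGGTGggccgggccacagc
S1pr4: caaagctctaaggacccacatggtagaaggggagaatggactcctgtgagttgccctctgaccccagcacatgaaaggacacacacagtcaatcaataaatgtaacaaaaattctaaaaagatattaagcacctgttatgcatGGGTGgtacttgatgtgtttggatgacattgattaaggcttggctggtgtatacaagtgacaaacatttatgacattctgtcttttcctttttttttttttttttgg
Cxcr4: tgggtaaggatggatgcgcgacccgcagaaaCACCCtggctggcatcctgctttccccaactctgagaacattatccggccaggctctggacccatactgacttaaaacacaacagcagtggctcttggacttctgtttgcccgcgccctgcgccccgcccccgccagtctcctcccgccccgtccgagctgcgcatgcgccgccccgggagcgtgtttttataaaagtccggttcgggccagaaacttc

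Both strands of windows from 250 bases before to 50 bases after the start site were searched for 6 motifs. CACCC had 1 match in each of the 3 windows, and 57.5% of 32851 windows in the table hold at least 1. GGAAA, the core bound by NFAT factors, likewise had 1 match in each, against 61.3% of all windows. GCGNGGGCG, the site of EGR factors, had 1 match in Klf2 and 1 in Cxcr4 and 0 in S1pr4, where 5.55% of all windows hold it. GTAAACA (forkhead factors, 3.65% of windows), TGANTCA (AP-1, 7.81%) and the NF-kB motif (1.63%) had 0 matches in the 3 windows. No match overlapped a match of another motif, and a match is a description of the letters only.

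Before the levels of the members are read, 11 libraries have to be named. All 10 libraries of WT mice 1 and 4 stood apart from the other 40. In these mice 6 immature thymocyte markers summed to between 1250 and 1680 CPM at 0h. The same sum lay between 13.3 and 84.7 CPM in KO mice, and WT mice 2, 3 and 5 had 10.9 to 37.2 CPM. For 10 mitotic markers the 0h sum lay between 4110 and 5110 CPM in the pair, between 87.8 and 159 CPM in the remaining WT animals and between 242 and 899 CPM in KO animals. All 10 CD8 T cell markers, among them Cd8a, Cd8b1 and Cd3e, were detected in every group at 0h. They summed to between 7350 and 7510 CPM in the pair, between 10400 and 29500 CPM in the remaining WT animals and between 9460 and 13000 CPM in KO animals. Cd8a was 288 to 477 CPM in the pair, 1660 to 2800 CPM in the remaining WT animals and 1300 to 1550 CPM in KO. Cd8b1 was 99.6 to 347, 1570 to 5220 and 1140 to 2050 CPM in the same order. Trac and Trbc1 were also lower in the pair, whereas Lck and Trbc2 overlapped the other mice. The value of 29500 CPM belongs to the 0h library of WT mouse 3, in which the 50 most abundant genes took 23.8% of the counts, against a median of 10.6% over all libraries. In KO mice and WT mice 2, 3 and 5 the sum of 10 B cell markers lay between 33.1 and 376 CPM at the start and between 10.2 and 28.9 CPM at the end of the course. That of 10 markers of CD8a-positive dendritic cells lay between 54.8 and 209 CPM and between 50 and 78.8 CPM. At 0h most of it was Cst3, at 55 to 88.9 CPM in KO and 42 to 193 CPM in WT mice 2, 3 and 5. Wdfy4 reached 31.8 CPM and Itgax 32.6 CPM in KO, whereas Xcr1 was at most 1.25 CPM and Clec9a at most 0.729 CPM. Results are therefore given from all 50 libraries and, beside them, from the 40 libraries without WT mice 1 and 4. The part that these other cell types, or the stage of the cells, have in the members' levels was not tested, and in bulk RNA fewer cells that express a gene and less RNA per cell cannot be told apart.

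Over 24h of activation Klf2, S1pr1, S1pr4 and Cxcr4 fell in both genotypes and Cd69 rose within 2h and then came part of the way down. Cxcr4 was higher at 2h than at 0h in all 5 KO mice and all 5 WT mice before it fell. That rise was called in KO over all 50 libraries and in WT over the 40 without WT mice 1 and 4. In KO mice Ccr7 rose, fell, rose and fell again over the 40 libraries. A change was called at a Benjamini-Hochberg adjusted p under 0.05 over all genes in edgeR's quasi-likelihood test, and the 4 changes of a genotype share its 0h libraries. The 10 groups also share 1 estimate of the spread between libraries, so WT mice 1 and 4 enter the SE of KO changes too. The common dispersion, edgeR's measure of that spread, was 0.214 over all 50 libraries and 0.0648 over the 40. A KO change not called over all 50 is therefore not a result of the KO libraries alone. From all 50 libraries, 1 member was called at 2h in WT mice, where 30.2% of all genes tested were called, and 2 in KO mice, where 39.9% were. At 6h the calls were 4 in WT (39.9% of all genes) and 4 in KO (49.2%), at 12h they were 4 in WT (39.4%) and 5 in KO (52.8%), and at 24h they were 5 in WT (44.1%) and 4 in KO (58.7%). Without WT mice 1 and 4, 3 members were called at 2h in WT (49.7% of 13253 genes tested) and 3 in KO (57.6%). At 6h the 40 libraries gave 6 in WT (59.8%) and 5 in KO (64.6%), at 12h 5 in WT (60.2%) and 6 in KO (67.1%), and at 24h 6 in WT (64.6%) and 5 in KO (71.2%). With so large a share of all genes called, a count of members called does not set these genes apart.

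**Figure D1:**
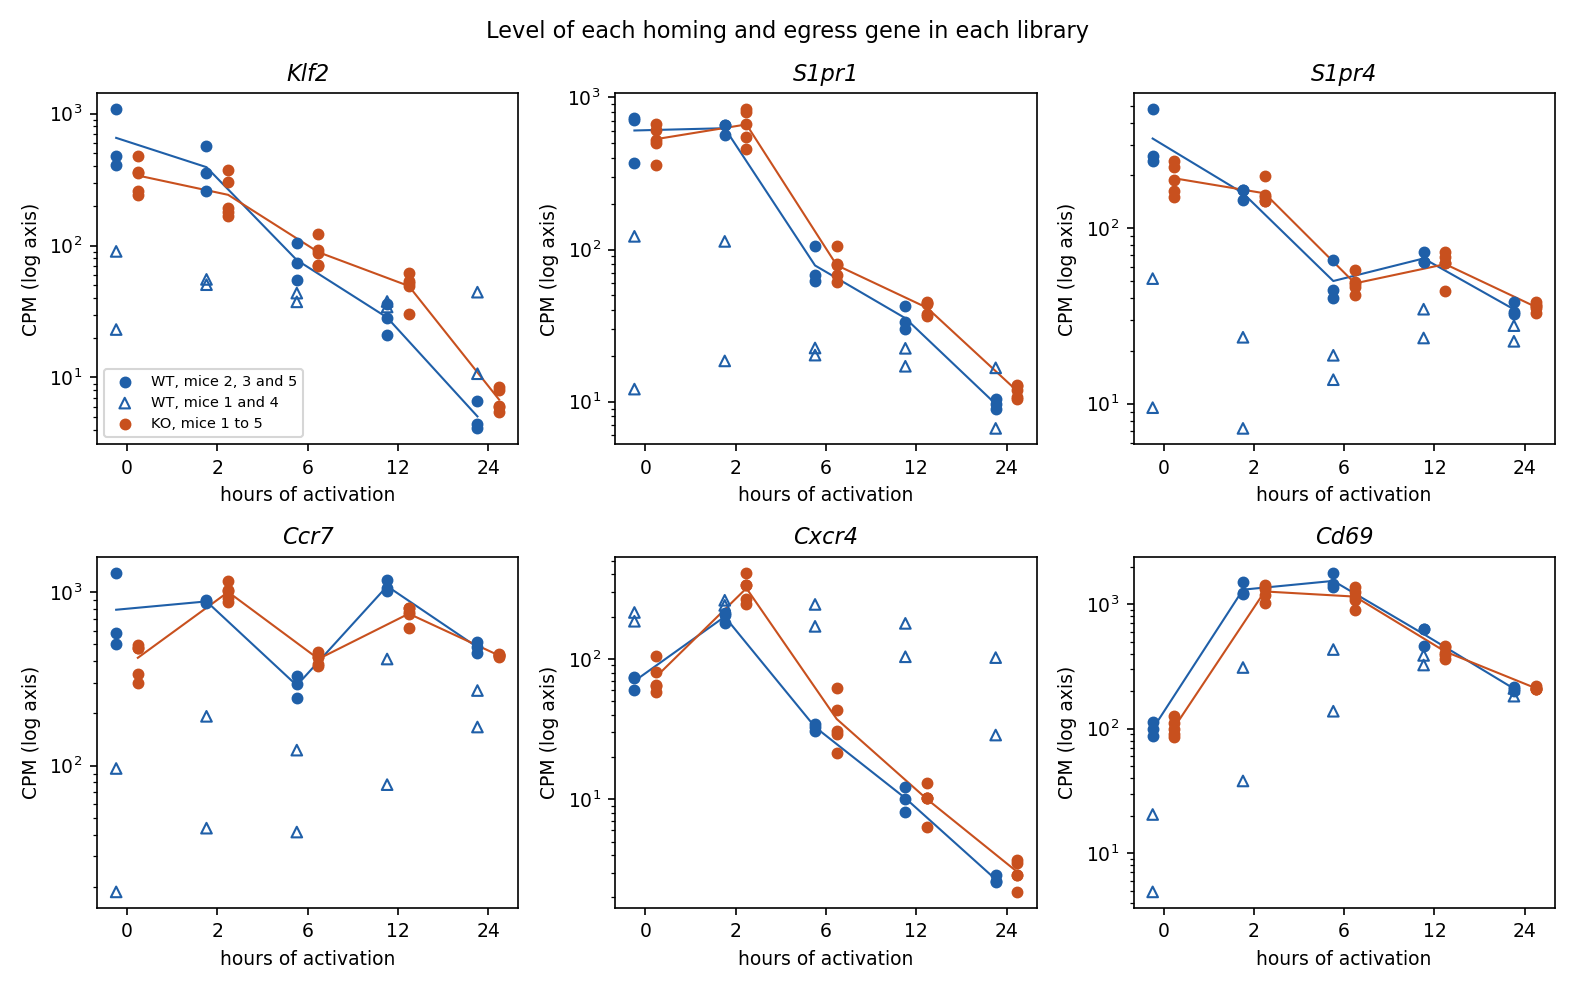
Level of each of the 6 genes in each library, as CPM on a log axis against hours of activation. Filled circles are WT mice 2, 3 and 5 (blue) and the 5 KO mice (orange), open triangles are WT mice 1 and 4, and lines join the means of the filled circles. Klf2 at 24h was 5.44 to 8.50 CPM in KO mice and 44.3 CPM in WT mouse 1, and the triangles lie below the circles at 0h for every gene but Cxcr4, where they lie above.

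Klf2 was among the most abundant members at 0h and near the bottom by 24h, and its decrease was called from 6h on in both genotypes. At 0h it was 259.7, 362, 479, 355 and 242 CPM in KO mice 1 to 5 and 23.1, 480.5, 1075, 90.3 and 409 CPM in WT mice 1 to 5. WT mouse 3 was the highest of all 10 and WT mice 1 and 4 were the lowest. At 2h Klf2 was 179, 371, 192, 304 and 166 CPM in KO and 50.5, 259.5, 566, 55.4 and 353 CPM in WT, and the change from 0h was not called in either genotype. At 6h it was 123, 88.4, 71.2, 92.3 and 70.0 CPM in KO and 37.4, 104, 73.4, 43.6 and 55.2 CPM in WT, and at 12h 49.2, 61.5, 52.1, 53.6 and 30.5 CPM in KO and 37.7, 28.2, 36.2, 34.2 and 21.0 CPM in WT. At 24h it was 6.04, 5.93, 5.44, 8.07 and 8.50 CPM in KO and 44.3, 6.63, 4.46, 10.7 and 4.11 CPM in WT. No KO library of 6h, 12h or 24h overlapped the KO libraries of 0h, and the same held for WT mice 2, 3 and 5. In WT mouse 1, Klf2 was higher at 24h than at 0h. The 5 KO mice held 1.14% to 3.51% of their own 0h level at 24h and WT mice 2, 3 and 5 held 0.415% to 1.38%, while WT mouse 4 held 11.8%. The log2 change from 0h to 24h was -5.64 (SE 0.72, adjusted p = 2.46e-08) in KO and -4.89 (SE 0.69, adjusted p = 4.04e-07) in WT, and -7.01 (SE 0.45, adjusted p = 3.34e-15) in WT without mice 1 and 4. At 6h the change was -1.93 (SE 0.60, adjusted p = 0.00724) in KO and -2.73 (SE 0.62, adjusted p = 0.000485) in WT. The KO call at 6h was lost when KO mouse 3 was left out, at -1.71 (adjusted p = 0.0511). The WT call of Klf2 at 6h was lost when the fit held only the libraries compared, at -2.74 (adjusted p = 0.0625).

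S1pr1 fell by 6h in both genotypes. At 0h it was 503, 606, 524, 666 and 358 CPM in KO mice and 12.1, 737, 368, 122 and 712 CPM in WT. At 2h S1pr1 was 552, 833, 672, 804 and 459 CPM in KO and 18.5, 655, 565, 113 and 661 CPM in WT. Each of the 5 KO mice had more S1pr1 at 2h than at 0h, at 110% to 137% of the earlier level, but the log2 difference of 0.32 (SE 0.57, adjusted p = 0.692) was not called, nor was that of 0.29 (SE 0.18, adjusted p = 0.165) from 40 libraries. By 6h the gene had dropped to 106, 67.6, 61.4, 78.9 and 80.6 CPM in KO and 20.2, 106, 67.5, 22.5 and 62.1 CPM in WT. From 2h to 6h the 5 KO mice kept 8.12% to 19.2% of the 2h level, a log2 change of -3.07 (SE 0.61, adjusted p = 6.78e-05). In WT that step was -2.85 (SE 0.61, adjusted p = 0.000344), and -3.0 (SE 0.25, adjusted p = 2.94e-12) without mice 1 and 4. S1pr1 at 12h was 43.7, 44.3, 44.9, 37.6 and 36.5 CPM in KO and 22.4, 42.6, 33.6, 17.1 and 29.96 CPM in WT. At 24h it was 12.0, 10.7, 10.3, 12.8 and 12.7 CPM in KO and 16.7, 10.4, 8.88, 6.67 and 9.64 CPM in WT, and the KO libraries lay within a range of 10.3 to 12.8 CPM. The change over 24h was -5.50 (SE 0.69, adjusted p = 1.97e-08) in KO, -5.22 (SE 0.68, adjusted p = 9.91e-08) in WT and -5.97 (SE 0.29, adjusted p = 6.08e-18) in WT without mice 1 and 4. WT mouse 1, which started at 12.1 CPM, ended at 16.7 CPM. With only the libraries compared in the fit, the WT calls of S1pr1 were lost for 6h against 0h, at -2.81 (adjusted p = 0.0748), and for 6h against 2h, at -2.87 (adjusted p = 0.0636).

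S1pr4, the other S1P receptor among the members, fell less far. It was 163, 240.3, 222, 188 and 150.3 CPM in KO and 9.50, 257, 476, 51.7 and 242 CPM in WT at 0h, and 142, 199.7, 151, 155 and 143 CPM in KO and 7.24, 166, 145, 23.9 and 165 CPM in WT at 2h. All 10 mice had less S1pr4 at 2h than at 0h. The 0h to 2h difference in WT was -1.03 (adjusted p = 0.155) from all libraries and -1.04 (SE 0.20, adjusted p = 6.91e-05) without WT mice 1 and 4, and with the mouse as a block it was -0.98 (adjusted p = 0.0437) over all mice. In KO it was -0.31 (SE 0.16, adjusted p = 0.086) over the 40 libraries, which was not called. At 6h S1pr4 was 57.8, 47.9, 41.7, 49.4 and 46.1 CPM in KO and 13.7, 65.8, 44.3, 18.9 and 40.1 CPM in WT. It was higher again at 12h in 4 of 5 KO mice, at 63.1, 73.2, 63.3, 68.7 and 44.0 CPM, and in 4 of 5 WT mice, at 23.7, 64.2, 73.6, 34.6 and 64.1 CPM. That 6h to 12h difference was not called, at 0.38 (SE 0.16, adjusted p = 0.0797) in KO and 0.39 (SE 0.20, adjusted p = 0.192) in WT over the 40 libraries. At 24h the levels were 35.2, 36.6, 32.7, 37.8 and 36.0 CPM in KO and 27.9, 37.9, 33.4, 22.7 and 32.3 CPM in WT, and the 5 KO mice kept 14.7% to 24.0% of their 0h level. WT mice 2, 3 and 5 kept 7.02% to 14.8% and WT mouse 4 kept 43.9%. In WT mouse 1, S1pr4 was higher at 24h than at 0h, at 294% of the earlier level. Over 24h the log2 change was -2.43 (SE 0.57, adjusted p = 0.000366) in KO, -2.75 (SE 0.58, adjusted p = 0.00018) in WT and -3.23 (SE 0.22, adjusted p = 1.47e-14) in WT without mice 1 and 4. The WT call of S1pr4 at 6h was lost with only the libraries compared in the fit, at -2.51 (adjusted p = 0.0882), and that at 12h was lost there, at -2.02 (adjusted p = 0.124), and by limma-voom, at -1.14 (adjusted p = 0.171).

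Ccr7 moved up and down rather than one way. In KO it was higher at 2h, lower at 6h, higher at 12h and lower at 24h, each time in all 5 mice. In KO mice 1 to 5 it went from 339, 479, 495, 479 and 301 CPM at 0h to 925, 1158, 1019.7, 1033 and 875 CPM at 2h, 374, 384, 454, 423 and 424 CPM at 6h, 747, 764, 813, 809 and 625 CPM at 12h and 437, 433, 423, 429 and 432 CPM at 24h. The KO libraries of 2h did not overlap those of 0h or 6h, and those of 12h did not overlap those of 6h or 24h. In WT mice 1 to 5 the levels were 18.7, 583, 1291, 96.2 and 502 CPM at 0h, 43.6, 870.0, 884, 192 and 899 CPM at 2h, 41.4, 328, 297, 123 and 244 CPM at 6h, 77.6, 1051, 1018, 412 and 1179 CPM at 12h and 167, 513, 445, 271 and 486 CPM at 24h. All 5 WT mice were lower at 6h than at 2h and higher at 12h than at 6h, WT mice 1 and 4 included, although these began at 18.7 and 96.2 CPM. From all 50 libraries 0 of the Ccr7 changes over time were called in edgeR's test, with an SE of 0.61 to 0.63 for each. In that fit the spread of WT mice 1 and 4 also enters the SE of the KO changes. Without WT mice 1 and 4 the steps of KO were all called, at 1.23 (SE 0.16, adjusted p = 5.48e-08) from 0h to 2h, -1.28 (SE 0.16, adjusted p = 1.83e-08) from 2h to 6h, 0.88 (SE 0.16, adjusted p = 9.00e-05) from 6h to 12h and -0.78 (SE 0.16, adjusted p = 0.000212) from 12h to 24h. The WT steps after 2h were called as well, at -1.61 (SE 0.21, adjusted p = 5.77e-08), 1.86 (SE 0.21, adjusted p = 7.57e-08) and -1.12 (SE 0.21, adjusted p = 5.84e-05). With the mouse as a block over all libraries, 2h to 6h was -1.28 (adjusted p = 0.00108) in KO and -1.14 (adjusted p = 0.00527) in WT, and 6h to 12h was 1.68 (adjusted p = 0.00251) in WT. The 0h to 2h step in WT depends on the 0h library of mouse 3, which held 1291 CPM. It was 0.15 (SE 0.20, adjusted p = 0.577) over the 40 libraries and 0.68 (adjusted p = 0.000509) when that library was also left out. The 24h level of KO mice was not called against 0h, with a log2 difference of 0.05 (SE 0.16, adjusted p = 0.797), and the WT difference of -0.72 (SE 0.21, adjusted p = 0.00277) was -0.20 (adjusted p = 0.258) without the 0h library of mouse 3.

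Cxcr4 in KO mice rose at 2h and had fallen below its starting level by 12h. In KO mice 1 to 5 it was 65.1, 81.4, 105, 64.0 and 57.7 CPM at 0h, 410.3, 247, 334, 267 and 338 CPM at 2h, 43.5, 21.3, 30.8, 29.2 and 61.8 CPM at 6h, 10.1, 6.40, 10.3, 10.3 and 13.0 CPM at 12h and 3.69, 2.19, 3.49, 2.90 and 2.90 CPM at 24h. All 5 KO mice were at 303% to 630% of their own 0h level at 2h, with no overlap, and at 2.69% to 5.67% of it at 24h. In WT mice 1 to 5 Cxcr4 was 214, 60.6, 73.4, 186 and 74.7 CPM at 0h, 241, 213, 182, 262 and 206 CPM at 2h, 245, 34.5, 30.9, 171 and 32.9 CPM at 6h, 179, 12.3, 10.1, 104 and 8.18 CPM at 12h and 102, 2.61, 2.58, 28.7 and 2.87 CPM at 24h. WT mice 1 and 4, whose libraries carried the high thymocyte and mitotic marker sums, were the highest WT libraries at every time, while mice 2, 3 and 5 were highest at 2h and lowest at 24h like the KO mice. The rise at 2h was 2.10 (SE 0.74, adjusted p = 0.0204) in KO. This call was lost on leaving out KO mouse 1, 4 or 5, at 1.95 to 2.10 (adjusted p up to 0.0842). The WT difference at 2h was 0.86 (SE 0.71, adjusted p = 0.402), with the mouse as a block 1.32 (adjusted p = 0.0107), and without mice 1 and 4 1.52 (SE 0.26, adjusted p = 1.14e-05). The difference at 12h from 0h was -2.90 (SE 0.76, adjusted p = 0.00155) in KO and -0.96 (SE 0.71, adjusted p = 0.298) in WT, and in WT -2.82 (SE 0.28, adjusted p = 1.16e-10) without mice 1 and 4 and -1.88 (adjusted p = 0.000516) with the block. Over 24h the log2 change of Cxcr4 was -4.62 (SE 0.84, adjusted p = 1.17e-05) in KO, -2.13 (SE 0.74, adjusted p = 0.0172) in WT and -4.69 (SE 0.31, adjusted p = 6.86e-15) in WT without mice 1 and 4. Leaving out WT mouse 1 alone gave -3.44, and leaving out WT mouse 4 alone ended the call, at -1.94 (adjusted p = 0.0656), as did a fit with only the libraries compared, at -2.20 (adjusted p = 0.154).

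Cd69 rose at 2h in both genotypes and was above its 0h level at every later time in all 10 mice. The 0h levels were 98.5, 112, 127, 86.1 and 89.8 CPM in KO and 4.89, 99.4, 86.9, 20.4 and 112 CPM in WT, and at 2h 1415, 1366, 1328, 1188 and 1024 CPM in KO and 38.0, 1196, 1507, 309.7 and 1218 CPM in WT. The libraries of 0h and 2h did not overlap in KO, nor in WT mice 2, 3 and 5. At 6h the levels were 903, 1256, 1381, 1135 and 1072 CPM in KO and 138, 1464, 1365, 432 and 1780.3 CPM in WT, and at 12h 406, 449.9, 465, 393 and 365 CPM in KO and 324, 628, 465, 387 and 632 CPM in WT. WT mouse 1 was highest at 12h, at 324 CPM, and the other 9 mice were highest at 2h or 6h. At 24h all 10 mice lay close together, at 219.7, 206, 209.9, 210.0 and 212 CPM in KO and 210.3, 209.6, 202, 182 and 217 CPM in WT. The change from 0h to 2h was 3.62 (SE 0.59, adjusted p = 4.19e-06) in KO and 3.72 (SE 0.60, adjusted p = 6.20e-06) in WT. Between 2h and 6h the difference was not called, at -0.14 (SE 0.12, adjusted p = 0.323) in KO and 0.24 (SE 0.15, adjusted p = 0.195) in WT over the 40 libraries. From 6h to 12h the log2 change of Cd69 was -1.45 (SE 0.12, adjusted p = 6.15e-11) in KO and -1.46 (SE 0.15, adjusted p = 1.70e-08) in WT over the 40 libraries, against -1.47 (SE 0.55, adjusted p = 0.136) and -1.09 (SE 0.54, adjusted p = 0.468) over all 50, which were not called. The level left at 24h was above that of 0h by 1.05 (SE 0.12, adjusted p = 1.21e-09) in KO and 1.07 (SE 0.15, adjusted p = 1.95e-07) in WT over the 40 libraries, and by 1.04 (SE 0.54, adjusted p = 0.0946) in KO and 1.66 (SE 0.55, adjusted p = 0.0131) in WT over all 50. With only the libraries compared in the fit, the WT calls of Cd69 were lost at 2h, at 3.75 (adjusted p = 0.0919), and at 24h, at 1.53 (adjusted p = 0.127).

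Neighbouring times give the order of each gene's levels. From 2h to 6h, 3 members were called over all 50 libraries in WT (Klf2, S1pr1 and S1pr4, all lower, with 29.3% of all genes called) and 4 in KO (the same 3 and Cxcr4, all lower, with 43.2%). The WT call of S1pr4, at -1.47 (SE 0.55, adjusted p = 0.0393), was lost in 8 of 10 fits that each left out 1 mouse, and the KO call of Klf2, at -1.44 (SE 0.59, adjusted p = 0.0454), was lost in 7 of 10. These fits left out mice of either genotype, and a WT mouse bears on a KO call only through the fit that all groups share. In all 5 KO mice Klf2 was lower at 6h than at 2h, with no overlap. The WT call of Klf2 was lost without WT mouse 5, and with only the libraries compared, at -2.05 (adjusted p = 0.0739), and the KO call of S1pr4 without KO mouse 2. From 6h to 12h, 0 members were called in WT, where edgeR called 0.609% of all genes and 1 member had an unadjusted p under 0.05, and where limma-voom and DESeq2 also called 0. In KO 0 were called (2.86% of all genes) and 2 had an unadjusted p under 0.05, with 0 calls by the other tools too. From 12h to 24h, 0 were called in WT (15.1% of all genes, 2 with an unadjusted p under 0.05), against 0 by limma-voom and 1 by DESeq2, and 2 in KO (Klf2 and S1pr1, lower, with 10% of all genes called). The KO call of S1pr1, at -1.82 (SE 0.59, adjusted p = 0.0405), was lost in 6 of 10 such fits, while that of Klf2, at -2.86 (SE 0.63, adjusted p = 0.00325), held in all 10. Both genes were lower at 24h than at 12h in all 5 KO mice, with no overlap.

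Without WT mice 1 and 4 most steps were called. From 2h to 6h 5 members fell in WT (51.3% of all genes called in either direction) and 5 in KO (58.8%), with Cd69 the exception in both. From 6h to 12h 5 were called in WT (20.6%) and 5 in KO (23.4%), Ccr7 upward and Klf2, S1pr1, Cxcr4 and Cd69 downward, with S1pr4 the exception. From 12h to 24h all 6 fell in WT (36.4%) and in KO (31.4%). By these steps and by the changes from 0h, Klf2 stood in the order 0h and 2h, 6h, 12h and 24h, with 0h and 2h not separated in either genotype. S1pr1 had the same order, with 0h and 2h again not separated. S1pr4 stood in the order 0h, 2h, 6h and 12h, and 24h, with 0h and 2h separated in WT and not in KO, and 6h and 12h separated in neither. Its 24h level was called below 12h and was not tested against 6h. Cxcr4 stood in the order 2h, 0h, 6h, 12h and 24h, each neighbour being separated by a call over the 40 libraries. Cd69 stood highest at 2h and 6h, which were not separated, then at 12h, 24h and 0h, with 12h tested against 6h and not against 2h.

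With the mouse as a block over all 50 libraries, further changes were called. For Ccr7 they were 1.27 (adjusted p = 0.00126) at 2h and 0.86 (adjusted p = 0.0194) at 12h in KO and 0.97 (adjusted p = 0.0141) at 12h in WT. For Cxcr4 they were -1.08 (adjusted p = 0.0253) at 6h in KO, and for Cd69 1.06 (adjusted p = 0.0244) at 24h in KO. Among the steps they were the fall of Cxcr4 from 2h to 6h in WT, -2.07 (adjusted p = 0.000246), from 6h to 12h in KO, -1.87 (adjusted p = 0.00489), and from 12h to 24h in WT, -1.48 (adjusted p = 0.00847), and KO, -1.71 (adjusted p = 0.00509). The fall of Cd69 from 6h to 12h in KO was -1.47 (adjusted p = 0.0233). Over the 40 libraries the block added Ccr7 at 12h in WT, 0.46 (adjusted p = 0.045), and Klf2 at 2h in KO, -0.55 (adjusted p = 0.0417).

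Between genotypes, Klf2, S1pr4 and Ccr7 were lower in KO at 0h and Ccr7 and Cd69 were lower in KO at 12h once WT mice 1 and 4 were set aside, while over all 50 libraries the call was Cxcr4 at 12h. The 0h calls of Klf2 and S1pr4 were lost when the 0h library of WT mouse 3 was left out too. From all 50 libraries 0 members were called at 0h (7.93% of all genes called), 2h (11.8%), 6h (10.1%) and 24h (0.0451%) in edgeR's test. The members with an unadjusted p under 0.05 numbered 0, 0, 1 and 1 at these times, limma-voom called 0 at each, and DESeq2 called 0 at each but 24h, where it called 1. At 12h 1 was called (13.1% of all genes), Cxcr4, at -2.65 (SE 0.76, adjusted p = 0.02). Its 12h levels were 6.40 to 13.0 CPM in KO and 8.18 to 12.3 CPM in WT mice 2, 3 and 5, whereas WT mouse 1 held 179 CPM and WT mouse 4 held 104 CPM. The call was lost in 7 of 10 fits that each left out 1 mouse, namely each KO mouse, WT mouse 1 (-1.75) or WT mouse 4. Without WT mice 1 and 4 together the difference was 0.02 (95% interval -0.48 to 0.51). At 24h the Cxcr4 difference over all mice was -3.19 (SE 0.79, adjusted p = 0.123), and 0.19 (SE 0.27, adjusted p = 1) without them. By the simple count of groups that do not overlap, 0 members separated all 5 KO from all 5 WT libraries at 0h (3.1% of all genes did), 2h (6.08%), 12h (24.4%) and 24h (5.9%). At 6h 1 did (11% of all genes), Ccr7, with 374 to 454 CPM in KO and 41.4 to 328 CPM in WT.

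Over the 40 libraries 3 members were called at 0h (22.4% of all genes called), all lower in KO. They were Klf2 at -0.95 (SE 0.30, adjusted p = 0.0219), S1pr4 at -0.75 (SE 0.18, adjusted p = 0.00384) and Ccr7 at -0.92 (SE 0.18, adjusted p = 0.0011). In each of the 3 the 0h library of WT mouse 3 was the highest, at 1075 CPM for Klf2, 476 CPM for S1pr4 and 1291 CPM for Ccr7, and without it the differences were -0.42 (adjusted p = 0.353), -0.40 (adjusted p = 0.095) and -0.40 (adjusted p = 0.0457). The summed level of 10 markers of memory or effector CD8 T cells at 0h was 735 to 1970 CPM in KO and 552 to 812 CPM in WT mice 2, 3 and 5, that of 5 NK cell markers was 92.2 to 237 CPM against 56.4 to 97.8 CPM, and that of the mitotic markers was 242 to 899 CPM against 87.8 to 159 CPM. Eomes counts in both the memory or effector sum and the NK sum, at 53.8 to 199 CPM in KO against 39.6 to 56.3 CPM. The other NK markers, Klrk1, Ncr1, Klrb1c and Klra8, overlapped between these groups, with Klrk1 at 10.3 to 33.2 CPM against 12.3 to 39.8 CPM. The part of these markers in the 0h differences was not tested. At 2h 0 members were called (4.1% of all genes, 2 members with an unadjusted p under 0.05), and at 6h 0 were (4.16%, 2 with an unadjusted p under 0.05). At 2h Cxcr4 was 246.5 to 410.3 CPM in KO and 182 to 213 CPM in WT mice 2, 3 and 5, with an uncalled difference of 0.65 (SE 0.23, adjusted p = 0.103). At 12h 2 were called (23% of all genes), both lower in KO. Ccr7 was 625 to 813 CPM in KO and 1018 to 1179 CPM in WT mice 2, 3 and 5, with a difference of -0.49 (SE 0.18, adjusted p = 0.0473). Cd69 was 364.8 to 464.6 CPM in KO and 464.9 to 632 CPM in those WT mice, with a difference of -0.43 (SE 0.13, adjusted p = 0.0181), and it was -0.44 (SE 0.13, adjusted p = 0.0532) at 6h. Klf2 at 12h leaned the other way, at 0.83 (SE 0.32, adjusted p = 0.0579), which was not called. At 24h 0 were called (0.0453% of all genes, 0 with an unadjusted p under 0.05). The 5 KO libraries did not overlap those of WT mice 2, 3 and 5 for S1pr4 and Ccr7 at 0h (11.1% of all genes did not), Cxcr4 at 2h (12.8%), Ccr7 at 6h (24.7%), Ccr7 and Cd69 at 12h (46.8%) and Ccr7 at 24h (13.3%). At 24h Ccr7 was 422.5 to 437.5 CPM in KO and 445 to 513 CPM in those WT mice.

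At 24h the 95% intervals over the 40 libraries held 0 for all 6 genes. The log2 difference, KO minus WT, was 0.42 (95% interval -0.28 to 1.11) for Klf2 and 0.28 (-0.17 to 0.74) for S1pr1. It was 0.05 (-0.32 to 0.43) for S1pr4 and -0.15 (-0.53 to 0.22) for Ccr7. For Cxcr4 it was 0.19 (-0.37 to 0.75) and for Cd69 0.02 (-0.25 to 0.30). S1pr1 had no called genotype difference at any time in either fit, with values at 2h and 6h of 0.06 (-0.36 to 0.49) and -0.01 (-0.44 to 0.41). The genotype comparisons count libraries of 1 mouse at different times as independent, so their adjusted p values may be too small. The main tests over time and of the interactions also leave out the mouse, which is a block only where stated.

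**Figure D2:**
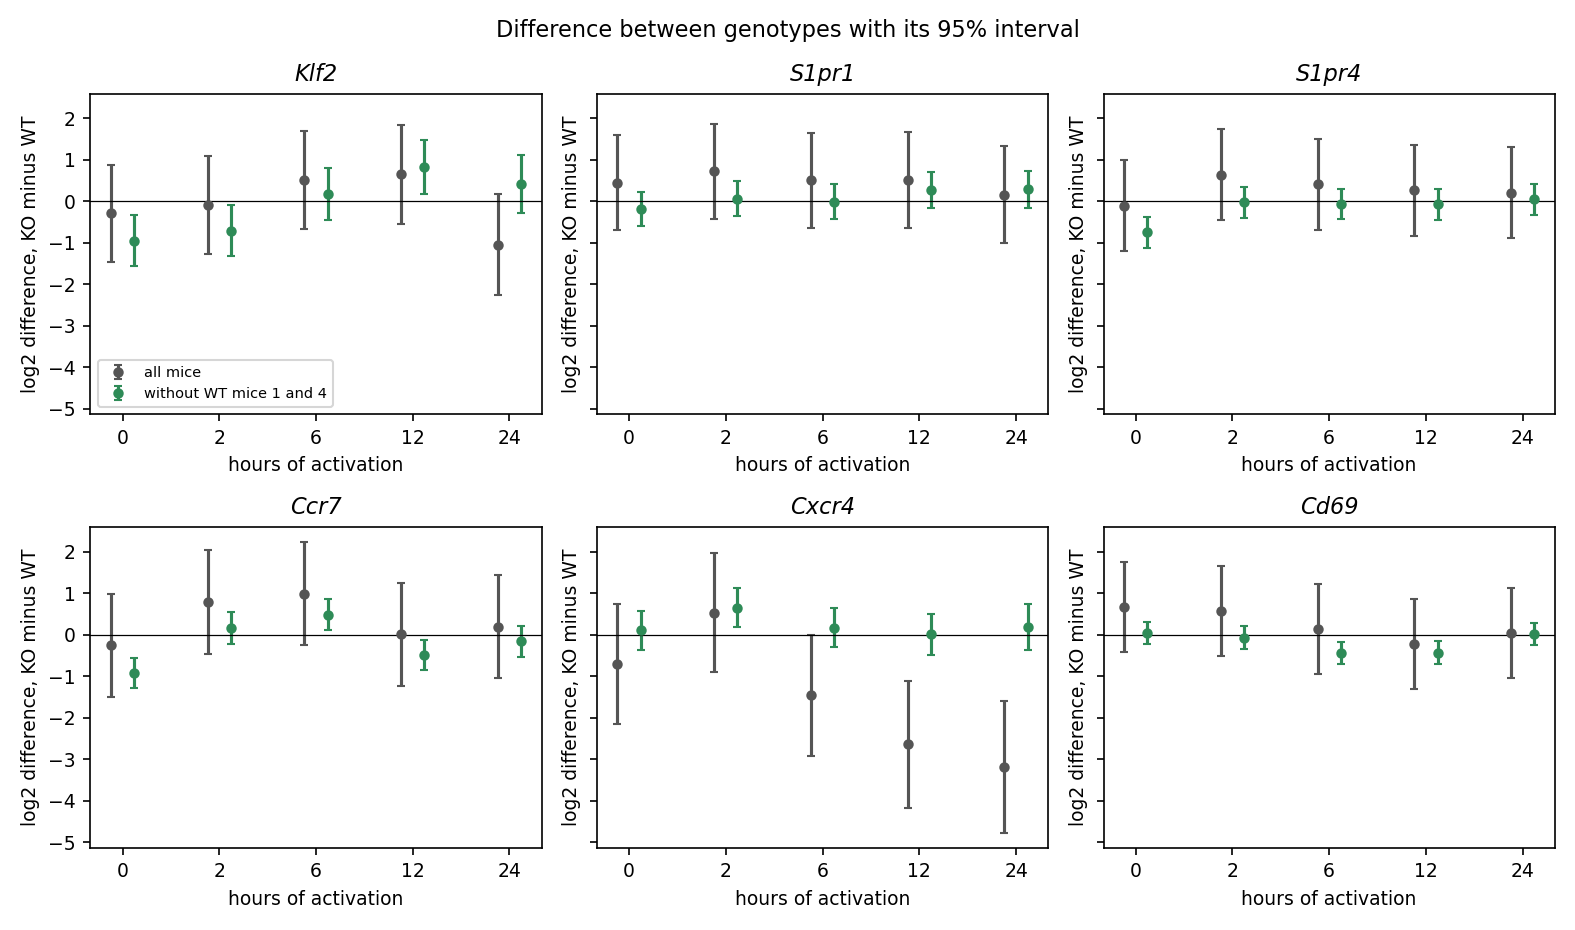
Log2 difference of each gene, KO minus WT, at each time with its unadjusted 95% interval, from all 50 libraries (grey) and from the 40 libraries without WT mice 1 and 4 (green). The grey intervals are wider throughout, and Cxcr4 at 12h moves from -2.65 over all mice to 0.02 without WT mice 1 and 4.

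Whether the response itself differed between genotypes was tested by the difference of the changes from 0h. From all 50 libraries 0 members were called at 2h (0.015% of all genes called), 6h (2.47%), 12h (7.5%) and 24h (0.0752%) in edgeR's test, with 0, 0, 0 and 1 members at an unadjusted p under 0.05. Limma-voom and DESeq2 called 0 at each time too. Over the 40 libraries 0 were called at 2h (0.264%, 2 with an unadjusted p under 0.05), 1 at 6h (9.56%), 1 at 12h (20.5%) and 0 at 24h (0.86%, 3 with an unadjusted p under 0.05). At 6h the call was Ccr7, whose change from 0h was -0.05 in KO and -1.46 in WT mice 2, 3 and 5, a difference of 1.41 (SE 0.26, adjusted p = 0.00212). At 12h it was Klf2, whose change was -2.80 in KO and -4.57 in WT, a difference of 1.77 (SE 0.44, adjusted p = 0.00384). Both include the 0h library of WT mouse 3, and without it they were 0.90 (adjusted p = 0.00314) for Ccr7 and 1.21 (adjusted p = 0.0298) for Klf2. With the mouse as a block in the 40 libraries, 3 further differences passed, namely Ccr7 at 2h at 1.04 (adjusted p = 0.049), S1pr4 at 12h at 0.66 (adjusted p = 0.0446) and Cd69 at 12h at -0.47 (adjusted p = 0.0399).

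Levels can be compared between the 6 genes only per length of exon. In KO mice at 0h the mean level in RPKM (CPM per kilobase of exons) was 211 for Ccr7, 184 for Klf2, 174 for S1pr1, 80.8 for S1pr4, 41.3 for Cxcr4 and 15.8 for Cd69. At 24h Ccr7 was still at 218 RPKM, followed by Cd69 at 32.5, S1pr4 at 14.95, S1pr1 at 3.85, Klf2 at 3.68 and Cxcr4 at 1.68 RPKM. S1pr4 thus stood below S1pr1 at 0h and above it at 24h, in RPKM. The means of WT mice 2, 3 and 5 showed the same exchange, at 136 against 199 RPKM at 0h and 14.5 against 3.17 RPKM at 24h. WT mouse 3 by itself did not, since its S1pr4 was already above its S1pr1 at 0h, at 199.4 against 120.9 RPKM. Cd69 has 5 annotated transcripts with 6509 nt of exons in all, and its RPKM is an underestimate where a shorter transcript is the one expressed.

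The counts of further trafficking genes at 24h are read against all 13294 genes tested, of which 3212 fell and 2650 rose in WT (44.1% called) and 3728 fell and 4081 rose in KO (58.7%). Over the 40 libraries, 4246 of 13253 fell and 4312 rose in WT (64.6%) and 4572 fell and 4869 rose in KO (71.2%). A list with a like share of calls is not set apart by its count. Of 27 further S1P pathway genes, 11 fell and 2 rose at 24h in WT and 10 fell and 3 rose in KO over all libraries, with a median log2 change of -0.30 in WT and -0.29 in KO, where all genes had -0.08 and 0.02. S1pr5, a receptor of NK and effector T cells, fell from a range of 1.66 to 7.91 CPM at 0h to one of 0 to 0.11 CPM at 24h in KO, and in WT it was 0 to 11.9 CPM at rest and 0 to 0.13 CPM at the end. Sphk1, a kinase that makes S1P, went from a range of 10.2 to 39.0 CPM at 0h to one of 0.23 to 0.74 CPM at 24h in KO, a log2 change of -5.52 (SE 0.74, adjusted p = 7.38e-08), and Spns2, the S1P exporter, went from a range of 3.59 to 11.2 CPM at 0h to one of 0.091 to 0.58 CPM at 24h. Arrb1, a beta-arrestin that takes part in receptor internalisation, fell from 94.8 ± 3.04 to 20.9 ± 2.25 CPM in KO (mean ± SD, n = 5), a log2 change of -2.18 (SE 0.40, adjusted p = 1.31e-05). The sum of 5 NK cell markers lay between 51.1 and 353 CPM in KO libraries, with 1 of them, Klra8, not detected in KO at 24h. At 0h in KO the largest part was Eomes, at 53.8 to 199 CPM, which is also among the memory or effector CD8 markers. Klrk1 was 10.3 to 33.2 CPM and Ncr1 0 to 3.72 CPM there. The part of NK cells in the level of S1pr5 was not tested.

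Among 22 further chemokine and lymphoid attractant receptors tested of 28 in the table, 13 fell and 3 rose at 24h in KO, and 5 fell and 6 rose in WT over all libraries, against 58.7% and 44.1% of all genes called. Without WT mice 1 and 4, where 25 were tested, the counts were 18 and 4 in KO (71.2% of all genes called) and 11 and 4 in WT (64.6%). The medians were -1.27 in both genotypes against 0.03 and -0.03 for all genes. Ccr9, the receptor of homing to the gut, fell from a range of 73.4 to 249.6 CPM at 0h to one of 2.33 to 4.06 CPM at 24h in KO, a log2 change of -5.66 (SE 0.67, adjusted p = 6.22e-09). Cx3cr1, a receptor of effector cells, fell from a range of 3.69 to 19.4 CPM at 0h to one of 0.042 to 0.27 CPM at 24h. Ccr4, a receptor for CCL17 and CCL22, rose from a range of 1.08 to 7.50 CPM at 0h to one of 47.6 to 61.8 CPM at 24h, and Ccr8, the receptor for CCL1, from a range of 0 to 0.84 CPM at 0h to one of 1.66 to 3.33 CPM at 24h. In WT the 24h level of Ccr8 was 2.71 CPM at the lowest and 47.6 CPM at the highest, with a mean of 3.09 CPM once mice 1 and 4 were set aside.

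Of 26 adhesion and rolling genes, 12 fell and 6 rose at 24h in KO and 12 fell and 7 rose in WT over all libraries, against 58.7% of all genes called in KO and 44.1% in WT. Itgb7, a chain of the gut-homing integrins, fell with a log2 change of -2.72 (SE 0.66, adjusted p = 0.000576) in KO, and Itgae, which pairs with it, with one of -3.21 (SE 0.77, adjusted p = 0.000486). Chst2, a sulfotransferase, rose from a range of 0.79 to 7.12 CPM at 0h to one of 128 to 153 CPM at 24h in KO.

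Of 37 genes of migration signalling, 17 fell and 5 rose at 24h in KO and 16 fell and 4 rose in WT over all libraries, against the same 58.7% and 44.1%. Arhgap45, a GTPase-activating protein of blood cells, fell with a log2 change of -2.90 (SE 0.38, adjusted p = 4.20e-08) in KO. Rgs1, Rgs10 and Rgs16 regulate G protein signals downstream of chemokine and S1P receptors, and they moved in both directions. Rgs1 rose from a range of 9.597 to 46.7 CPM at 0h to one of 317 to 358 CPM at 24h and Rgs16 from a range of 0 to 3.61 CPM at 0h to one of 236 to 316 CPM at 24h in KO, while Rgs10 fell with a log2 change of -2.45 (SE 0.47, adjusted p = 2.52e-05). In WT mice 2, 3 and 5 the log2 changes were 6.39 for Rgs1, 8.32 for Rgs16 and -3.04 for Rgs10.

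Of 28 tested Klf and Foxo family factors and their regulators, 13 fell and 5 rose at 24h in KO and 15 fell and 4 rose in WT over all libraries, where 58.7% and 44.1% of all genes were called. Klf3, a repressor of the same family as Klf2, was 368 ± 53.5 CPM at 0h and 35.3 ± 1.35 CPM at 24h in KO (n = 5), a log2 change of -3.38 (SE 0.31, adjusted p = 2.11e-11), and -3.39 (SE 0.31, adjusted p = 3.83e-11) in WT. Pik3ip1, an inhibitor of PI3-kinase, fell with a log2 change of -4.32 (SE 0.46, adjusted p = 7.74e-10) in KO. Tcf7, a factor of naive and memory T cells, had one of -2.14 (SE 0.40, adjusted p = 1.70e-05), and Mef2c, a MADS-box factor, one of -3.15 (SE 0.50, adjusted p = 1.34e-06) from a level of 5.77 to 12.7 CPM. From 0h to 2h in KO, 9 of the 28 rose and 1 fell over all libraries (39.9% of all genes called), and 13 rose and 3 fell over the 40 (57.6%). Of 10 genes that encode ligands of the members, 4 were tested, and 1 fell and 1 rose at 24h in KO. Myl12b, whose protein product is a ligand of CD69, was the one that fell, with a log2 change of -2.60 (SE 0.31, adjusted p = 7.21e-09). At 12h over the 40 libraries, where 23% of all genes differed between genotypes, 12 of these 28 factors and regulators were higher in KO and 1 lower, and of the 37 migration genes 12 were higher and 6 lower.

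**Figure D3:**
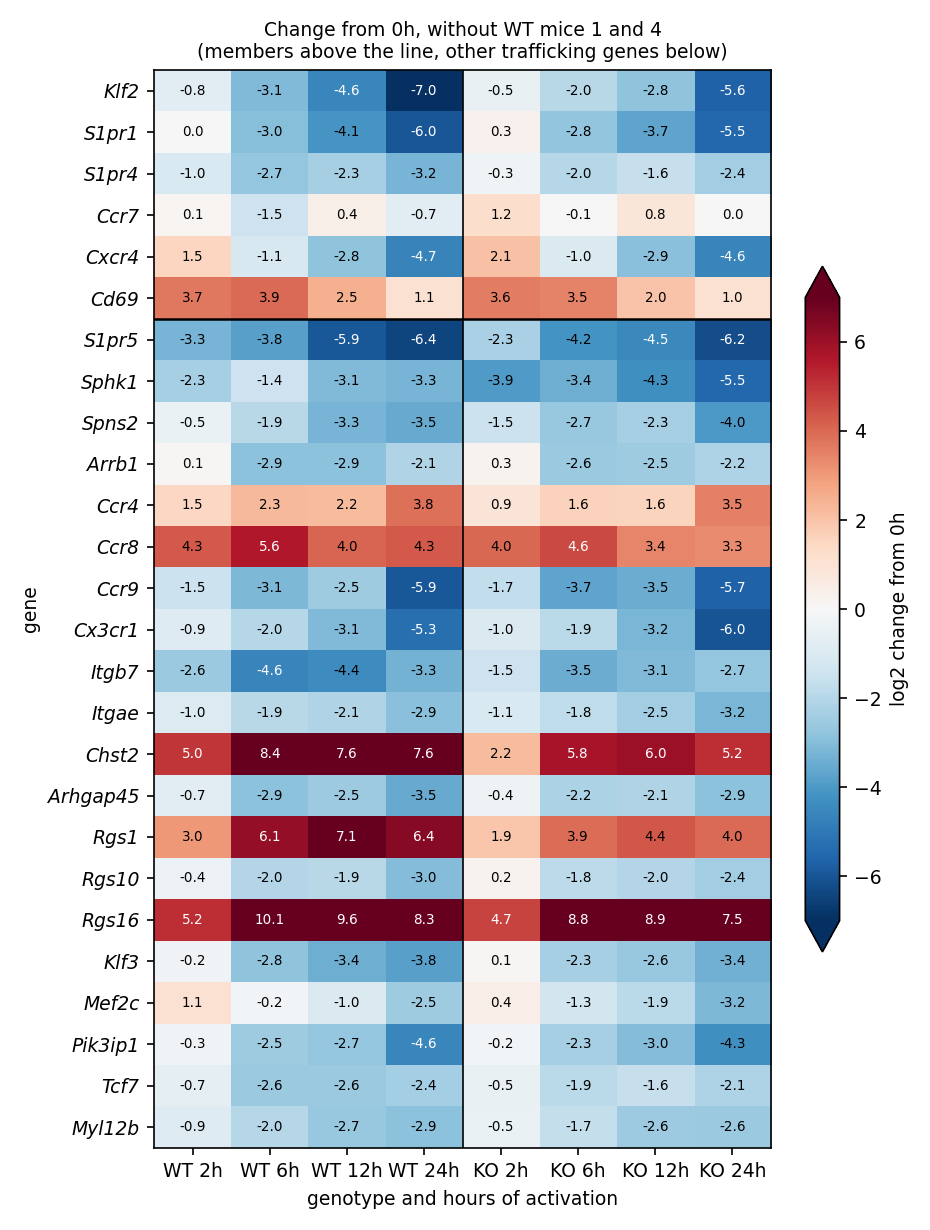
Log2 change from 0h at 2h, 6h, 12h and 24h in WT and KO, from the 40 libraries without WT mice 1 and 4, for the 6 members (above the line) and other trafficking genes chosen by rule (below), with the value in each cell. Cd69 is the member that stands above 0 at every time, and S1pr1 at 24h is -5.97 in WT and -5.50 in KO before the rounding used in the cells.

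The genes with the most similar profile were sought among 10417 genes by Pearson's r of log2 CPM over the 50 libraries, which share mice, times and genotypes, so that any 2 genes with a strong time course are alike. For Klf2 they were Ypel3 (r = 0.962), H2-Ob (0.951) and Irf7 (0.945), and for S1pr1 they were Rasa3 (0.982), Il7r (0.979), the interleukin-7 receptor of naive and memory T cells, and Cd55 (0.970). S1pr1 kept the same 3 genes over the 40 libraries without WT mice 1 and 4, with Il7r highest at 0.990. For S1pr4 they were Pced1b (0.971), Atp1b3 (0.965) and Tnfaip8l2 (0.950), for Cxcr4 Pou6f1 (0.951), Ldlrad4 (0.947) and Ip6k2 (0.940), and for Cd69 Tbc1d30 (0.958), Gpr171 (0.956) and Srgn (0.955). For Ccr7 they were March9 (0.909), Stat4 (0.906) and Rap1b (0.905) over 50 libraries, which gave 0.551, 0.544 and 0.753 over 40. Over the 40 the most similar gene became Gimap3 for Klf2 (0.982), Arhgap45 for S1pr4 (0.987), Dnajc18 for Ccr7 (0.820) and Nek8 for Cd69 (0.978). These gave 0.645, 0.810, -0.103 and 0.880 over 50. For Cxcr4 it remained Pou6f1 (0.981 over 40). Between members, Klf2 and S1pr1 gave 0.930 over 50 libraries and 0.953 over 40, while S1pr4 and Cxcr4 gave 0.225 and 0.775.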

How the data were processed

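Per the labels, poly(A) mRNA libraries gave single-end reads of 50 nt. Alignment and counting tools listed in the submitters' processing notes are STAR 2.4 and featureCounts 1.4.6, beside CASAVA 1.8.2, and the listed build is GRCm38. The annotation release, the strand setting and the treatment of reads with several matches are not given in the sources used here. The authors deposited raw read counts per Ensembl gene. Of 21647 identifiers, 21583 were matched to a symbol and 64 were not.

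Genes with too few reads were removed with edgeR's filterByExpr (minimum count 10, minimum total 15), which left 13294 genes over 50 libraries and 13253 over the 40 libraries without WT mice 1 and 4, and counts were scaled by TMM. Changes were tested with edgeR 4.0.16 (R 4.3.3) by the robust quasi-likelihood test, with 1 mean per genotype and time and Benjamini-Hochberg adjustment over all genes at 0.05. Intervals are at 95%. limma 3.58.1 (voom), DESeq2 1.42.0, other filters and scalings, a block for the mouse and fits that each left out 1 mouse were alternatives. The edgeR script was tested on simulated counts. No replicate libraries held identical values.

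Mouse numbers mark 1 animal sampled at all times within a genotype, per the labels. Deviations from the group mean of libraries of 1 mouse correlated at a mean of 0.317 to 0.783 in WT and 0.0765 to 0.421 in KO, by pair of times. Except where the mouse is a block or a random effect, all comparisons, over time and between genotypes, count libraries of 1 mouse as independent.

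All 6 members are given in full. From each gene list, the members left out, up to 4 genes are named that had the largest log2 change from 0h to 24h averaged over genotypes, among those called in both with a group mean of at least 5 CPM. For each member the 3 most similar genes by Pearson's r of log2 CPM (prior count 2) are named. The members, lists and rules were chosen with earlier results of these data known. A protein comparison was not run. A check of the genotype labels by the targeted gene, and a gene that the naming rule picks from the adhesion list, are not reported here.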

Additional observations from a re-analysis of the deposited data

Results flagged for a closer look

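Each of the 60 groups of 5 libraries (6 genes, 2 genotypes, 5 times) was searched for a library far from the other 4, and 3 had one, where chance gives about 1 in 20. Klf2 at 24h was 44.3 CPM in WT mouse 1, and the nearest WT library held 10.7 CPM. Cxcr4 at 24h was 102 CPM in the same mouse, and the nearest held 28.7 CPM. S1pr4 at 2h was 199.7 CPM in KO mouse 2, and the nearest KO library held 155 CPM.

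The change from 0h differed between genotypes in 2 tests over the 40 libraries without WT mice 1 and 4. For Ccr7 at 6h the difference of the log2 changes, KO minus WT, was 1.41. For Klf2 at 12h it was 1.77.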

How the results depend on the processing

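Of 2760 values recomputed under alternatives, 2393 kept their direction and their side of the threshold, 186 gained a call, 55 lost one, 120 moved and 6 reversed. The reversals were KO minus WT differences. Cxcr4 at 12h was 0.016 without WT mice 1 and 4. Ccr7 at 12h was -0.49 without them, -0.49 with the mouse as a random effect in voom without them, and -0.53 when the WT mouse 3 library of 0h was left out too. Cd69 at 6h was -0.44 with that random effect and -0.43 without that library. The last setting and its companion were chosen after seeing the data. The cause of these changes was not tested.

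Counts of members called that moved by over 1.5 times are given with the value from all libraries in brackets. Without WT mice 1 and 4 they were 3 (1) in WT at 2h, 5 (3), 5 (0) and 6 (0) for the WT steps to 6h, 12h and 24h, 5 (0) and 6 (2) for the KO steps to 12h and 24h, 3 (0) and 2 (1) for KO minus WT at 0h and 12h, and 1 (0) and 1 (0) for the interactions at 6h and 12h. Without the WT mouse 3 library of 0h as well, they were 4 in WT at 2h, 5, 5 and 6 for the WT steps, 6 and 6 for the KO steps, 1, 2 and 3 for KO minus WT at 0h, 6h and 12h, and 1 and 1 for the interactions. With the mouse as a replicate block, they were 3 in WT at 2h, 5, 1 and 1 for the WT steps and 2 for the KO step to 12h, and beyond the changes given with the results the block changed no call over time. The replicate block without WT mice 1 and 4 gave 3 in WT and 4 (2) in KO at 2h, 5, 5 and 6 for the WT steps, 5 and 6 for the KO steps, and 1, 1 and 3 for the interactions at 2h, 6h and 12h. With libraries of the compared groups alone, they were 0 (1), 1 (4) and 3 (5) in WT at 2h, 6h and 24h, 0 (3) and 2 (0) for the WT steps to 6h and 24h, 6 and 6 for the KO steps to 12h and 24h, and 2 for KO minus WT at 12h. Without a filter the KO step to 24h gave 1 (2). limma-voom gave 1 for it and 0 for KO minus WT at 12h, as did the random effect for the latter, and without WT mice 1 and 4 the random effect gave 3, 1 and 2 at 0h, 6h and 12h. DESeq2 gave 1 (0) for the WT step to 24h and 1 (0) for KO minus WT at 24h.

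Leaving out 1 mouse at a time, counts were 1 to 2 in WT and 1 to 3 in KO at 2h, 1 to 5, 0 to 2 and 0 to 5 for the WT steps, 2 to 5, 0 to 2 and 1 to 4 for the KO steps, and 0 to 1 for KO minus WT at 12h and at 24h. Without WT mouse 1 the counts were 2 in WT at 2h, 5, 2 and 5 for the WT steps, 2 and 4 for the KO steps to 12h and 24h, and 0 for KO minus WT at 12h.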
